A study of Mus musculus with 3 samples.

Results

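Step regions are short stretches of the genome in which the array signal of immunoprecipitated, methylated DNA over input DNA is much higher at one end than at the other. They were looked for in tiled regions, which are runs of array probes with no gap of over 500 bp from one start to the next. A run of 1000 to 1800 bp on chromosomes 1 to 19 was divided into 3 parts of equal length, and was eligible with at least 9 probes and at least 3 in each outer part. Members were chosen by their measured log2 ratios: a region was a member when the mean log2 ratio of bound over input DNA differed between the left and the right outer part by at least 1 on average over 3 arrays, with the same sign on every array. Of 17218 eligible regions, 5985 (34.8%) met the rule, which is 20.7% of the 28880 tiled regions of the series. In what follows the outer part with the higher ratio is the high end, the other is the low end, and the stretch between them is the middle. Left means the lower chromosome coordinate, not upstream of a gene.

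The samples were 3 arrays of 1 group, frontal cortex of naive male C57BL/6 mice, aged 2 months. Each array held a DNA pool of 3 mice, with input DNA in Cy3 and DNA captured by an antibody against 5-methylcytosine in Cy5, both after whole-genome amplification. All arrays ran in the same dye orientation, so dye bias and enrichment cannot be told apart, and there was no second condition. The titles number the replicates 1 to 3 while the descriptions give all arrays the number 1, so the spread between arrays may be technical. The title of the series concerns methylation at transcription start sites and binding of the TATA-binding protein. Frontal cortex mixes neurons and glia, so an intermediate level in a pool can come from any mixture of cells or alleles.

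In mammals most CpG sites are methylated, while CpG-rich promoter islands are mostly free of methylation. The border of such an island, often called its shore, is where the level changes over a short distance, and an array region that spans a border can show a step. Capture by antibody acts on whole sonicated fragments and grows with the number of methylated CpGs they hold. A step in bound DNA is therefore blurred over the length of a fragment, and the ratio of bound over input does not measure the share of methylated CpGs. The probes carry mm9 positions and no gene names, and no mm9 annotation or sequence was used, so whether a step lies at a gene start or an island was not analysed here, nor could the tissue be checked against marker genes.

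Each array was centred on its median probe, which is the level 0. The high end had a median level of 0.98, 0.81 and 0.65 on arrays 1, 2 and 3 over the 5985 members (mean 0.82 ± 0.17, SD, n = 3 arrays). The low end had medians of -0.86, -0.76 and -0.70 (mean -0.77 ± 0.08). Array 1 thus showed the widest separation and array 3 the narrowest, and every array placed the high end above its median probe and the low end below. These levels chose the members and are a description. The middle, which the rule did not use, had medians of -0.25, -0.17 and -0.20 on the 3 arrays over the 5845 members with at least 2 probes there.

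**Figure D1:**
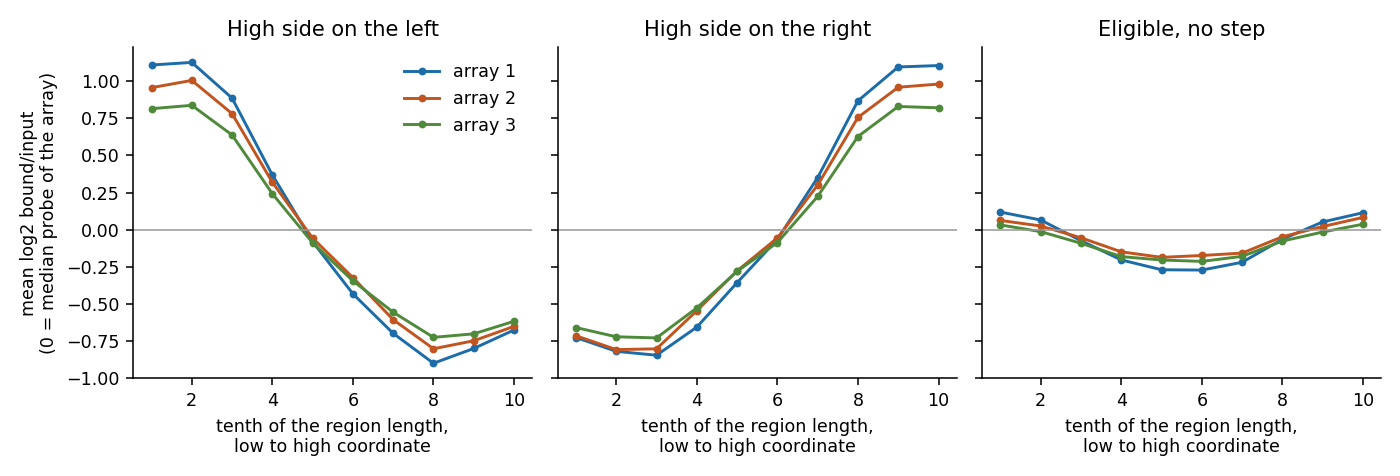
Mean log2 ratio of bound over input DNA in 10 equal bins of the region length (left to right), one line per array, for members with the high end on the left, members with the high end on the right, and eligible regions without a step. Both kinds of member run from near 0.97 at the high end to near -0.8 on the low side, as mirror images, while regions without a step dip to -0.22 in the centre.

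Both directions were about equally common. The high end was on the left in 2921 members (48.8%) and on the right in 3064. The median step over arrays was 1.55 ± 0.19 for the first kind and 1.53 ± 0.17 for the second, and the first was larger on each of the 3 arrays (1.74, 1.54 and 1.36 against 1.69, 1.53 and 1.35). These values follow from the rule and were not tested. Members and regions without a step were alike in design, with a median length of 1361 and 1359 bp and a median of 15 probes each.

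The median member had a step of 1.48, a 2.79-fold difference in the ratio, with a median SD over arrays of 0.39. The 95th percentile was 2.63 and the largest step 4.23. By array the median was 1.72, 1.54 and 1.36. Among all eligible regions limma's test of left minus right called 55.1% at an adjusted p under 0.05 (27.0% higher and 28.1% lower on the left), and it called all 5985 members. Since the rule used that contrast, nothing is read from the second count. Just inside the limit were 2 regions with steps of 1.0000 ± 0.11 and 1.0001 ± 0.61, on chromosomes 19 and 13, and just outside were 2 of 0.9999 ± 0.58 and 0.9996 ± 0.22, on chromosomes 15 and 7. These 4 were picked for lying next to the limit and do not differ beyond their spread, so the rule parts regions of like step there.

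The number of members depended on how the signal was made and which probes were kept. Normexp correction with an offset of 50, on spot medians in place of processed signals, gave 1363 members, of which 1349 were among the 5985, with a median step of 0.69 over the original members. When probes were kept only if both channels rose above background, 8879 regions were eligible and 3529 (39.7%) were members.

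The step was also read on an array that played no part in the choice. With the rule applied to arrays 2 and 3 alone, 5715 regions were chosen, and on array 1 the step had the same sign in 98.3% of them with a median of 1.62. With arrays 1 and 3, 6127 were chosen, and array 2 gave the same sign in 98.9% with a median of 1.46. With arrays 1 and 2, 6591 were chosen, and array 3 gave the same sign in 98.2% with a median of 1.24. On the array left out, 80.1%, 76.1% and 65.4% were at least 1 in size. The direction of a step was therefore shared by nearly all of these regions on the array left out, while its size was smallest on array 3. Left minus right was also shared between arrays over all 17218 eligible regions, with Pearson r from 0.82 to 0.86. The share of the same sign among regions not chosen is not given here. All arrays used the same probes and dye orientation, and the part of fixed probe effects in this agreement was not tested.

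**Figure D2:**
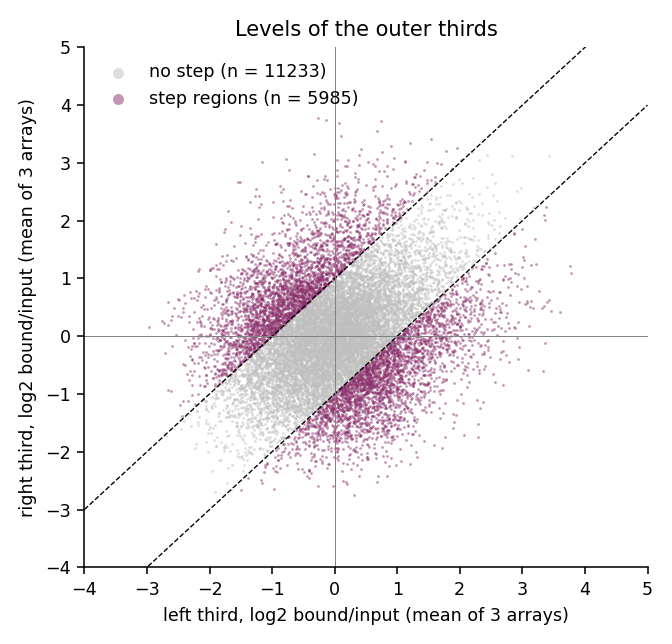
Level of the left against the right outer part of each of 17218 eligible regions (log2 ratio of bound over input, mean of 3 arrays), members coloured and the dashed lines marking a difference of 1. Members form 2 flanks of about equal size, of which most cross 0 on one axis.

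Most members crossed the level of the median probe. The high end lay above 0 and the low end below 0 in 4267 members (71.3%). Both ends were above 0 in 1010 (16.9%), and both were below 0 in 708 (11.8%). Among the 11233 eligible regions without a step the same classes held 27.8%, 35.6% and 36.6%. This comparison follows in part from the rule, since a wide difference is more likely to straddle 0. The levels also depend on the zero point: with each array centred on its mode, the median level was 0.13 at the high end and -1.46 at the low end, and 3189 members straddled 0.

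The classes of step size are set by the difference of both ends, so the levels of the ends by class are a description. In the 3089 members with a step of 1 to 1.5 the high end had a median of 0.60 ± 0.12 and the low end of -0.64 ± 0.07. In the 404 with a step of at least 2.5 these were 1.60 ± 0.23 and -1.27 ± 0.12. The middle, which did not enter the step, was at -0.23 ± 0.05 in the first class and 0.01 ± 0.04 in the last, and higher in the last on all 3 arrays. Its place on the way from low to high end was 32.7% in the first class and 43.1% in the last.

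**Figure D3:**
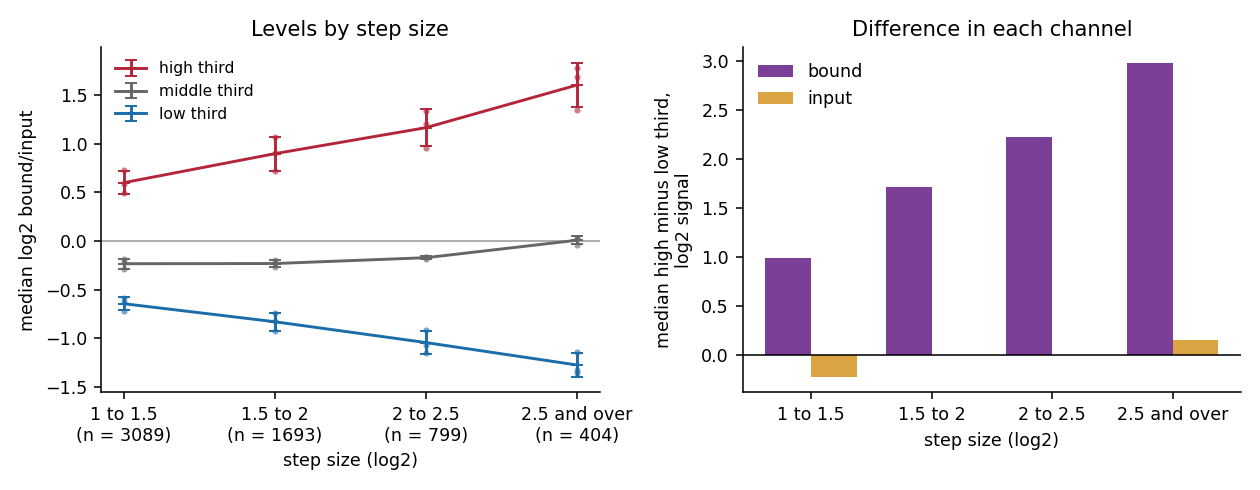
Left, median log2 ratio of the high end, middle and low end by class of step size, with 3 array values as points and mean ± SD as bars. Right, median difference between the high and the low end in the bound and in the input signal. The high end rises from 0.60 to 1.60 across the classes, and the difference in input goes from -0.22 to 0.16.

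A ratio can step because bound DNA changes or because input signal changes. The median difference between high and low end in log2 bound signal was 1.53, 1.44 and 1.46 on the 3 arrays (mean 1.48 ± 0.04). In input signal it was -0.24, -0.12 and 0.07 (mean -0.10 ± 0.16), so the arrays did not share a sign. Bound signal alone differed by at least 1 in 3604 members (60.2%). In these the input was also brighter at the high end, by a median of 0.77 ± 0.10, and the bound signal by 2.42 ± 0.09. The bound difference follows from that choice. The input difference is tied to it as well, since the step is the bound difference minus the input difference. Neither was tested.

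In 2050 members (34.3%) a dimmer input at the high end made up over 50% of the step. Their median bound difference was -0.23 ± 0.01 and their median input difference -1.75 ± 0.17. The choice holds the bound difference below 50% of the step in these members, so both medians follow in part from it. In the median of this set the bound signal did not rise towards the high end, though it can rise in single members of the set. Over the 2050 members, input was well above background in 55.1% of measurements at the high end and in 88.5% at the low end. The split by input signal fixes that difference. The part that probe sequence or amplification bias has in these steps was not tested.

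Over all members, bound signal near background bears on the low end in particular, unlike in the 2050 members above. Bound signal was well above background for 63.4%, 41.5% and 45.3% of low-end probes on arrays 1, 2 and 3, against 78.0%, 64.6% and 68.5% at the high end. In 4468 members (74.7%) at least 1 low-end probe had bound signal below background on all arrays, and in 244 (4.1%) every low-end probe did. For such probes, where the input was above background, the ratio is an upper limit. In 2295 members at least 1 high-end probe had neither channel above background on any array, so its ratio was not measured.

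Members in which each probe of both ends had bound and input signal well above background, on 1 or more arrays, numbered 921 (15.4%), of which 446 were high on the left. These are called fully measured below. Their median step was 1.56, 1.60 and 1.48 on the 3 arrays (mean 1.55 ± 0.06), close to that of all members. Both of their ends were higher: the high end had a median of 1.51 ± 0.18 and the low end of -0.08 ± 0.13. Both ends were above 0 in 423 of them and straddled 0 in 470. A filter on bound signal selects for higher levels, so this shift goes with the filter. Only 109 members met the same condition on all 3 arrays.

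The largest fully measured steps, the 10 greatest of each direction outside chromosome 18, ranged from 2.93 to 4.05 for those high on the left and from 2.98 to 3.88 for those high on the right. The greatest lay on chromosome 11 from 106137142 to 106138276 (12 probes over 1135 bp), with steps of 4.20, 4.34 and 3.59 on the 3 arrays. All arrays gave a drop of over 3.5, and the mean of 4.05 ± 0.40 (n = 3) is a 16.5-fold difference in the ratio. Its left end was at 2.30 ± 0.17 and its right end at -1.75 ± 0.26, with 7 of 9 bound measurements at the low end above background. The middle, at 1.08 ± 0.24, lay 69.9% of the way up.

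The next 2 of this direction began from a higher plateau. On chromosome 5 from 136443603 to 136444770 the steps were 3.66, 4.02 and 3.34, from 3.09 ± 0.09 on the left to -0.59 ± 0.25 on the right. The right mean joined unlike probes, with 1.20 at the first of its 3 probes and -1.64 and -1.32 at the others. On chromosome 2 from 165724319 to 165725683 they were 3.31, 3.90 and 3.23, from 3.36 ± 0.21 to -0.12 ± 0.25. The low end of the second was near the level of the median probe, with 6 of 9 bound measurements there above background.

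The greatest step in the other direction lay on chromosome 10 from 76629076 to 76630438 (17 probes). Its steps were 3.35, 4.28 and 4.03 (mean 3.88 ± 0.48), from -0.13 ± 0.46 on the left to 3.75 ± 0.13 on the right. The high end agreed closely between arrays (3.75, 3.88 and 3.62), and the spread of the step came from the low end (0.40, -0.40 and -0.41). On chromosome 2 from 130881941 to 130883081 the steps were 3.65, 3.98 and 3.08, from -1.76 ± 0.37 to 1.81 ± 0.13. On chromosome 15 from 88812188 to 88813593 they were 3.57, 3.31 and 3.59, the closest agreement of the 20, from -0.33 ± 0.35 to 3.16 ± 0.31. No probe of that region lies between 88812638 and 88813007, so its step is placed no better than that gap.

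**Figure D4:**
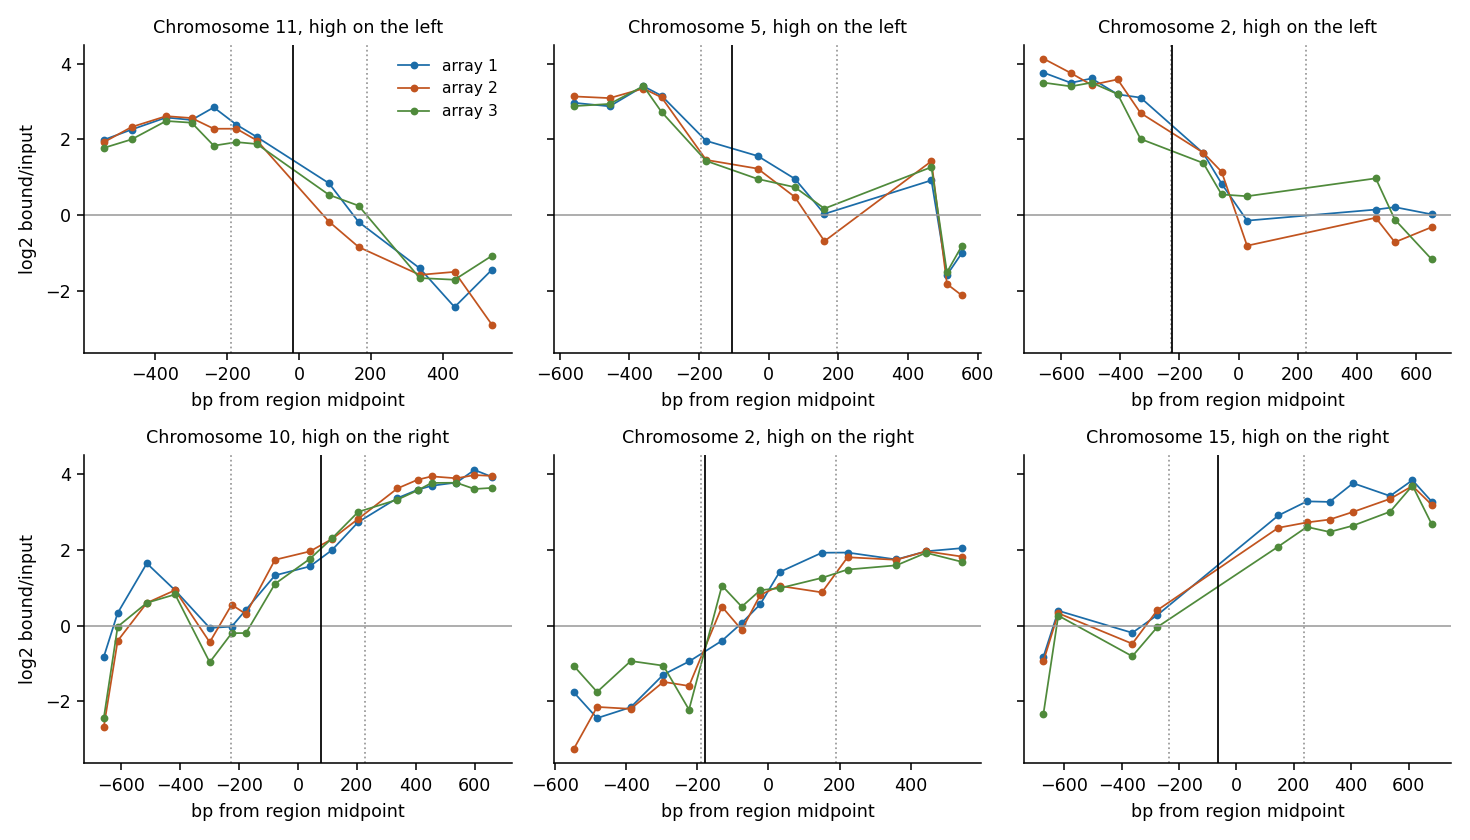
Log2 ratio of bound over input at each probe of the 3 largest fully measured steps in each direction, one line per array, against distance from the region midpoint. Dotted lines bound the middle and the black line is the fitted change point; over the 6 panels the means of 3 arrays lie between 1.81 and 3.75 at the high end and between -1.76 and -0.12 at the low end.

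The region on chromosome 5 from 77640088 to 77641673 showed a flat plateau that was reached within the middle. Its 5 left probes averaged 0.13, 0.26 and -0.08 on the 3 arrays and its 7 right probes 3.42, 3.83 and 3.15. The middle was already at 3.17 ± 0.40, or 91.1% of the way up. The probe starting at 77640429 was at 0.54 ± 0.12, the next at 77640690 at 1.56 ± 0.23 and the one at 77640768 at 3.31 ± 0.40. From there to the right edge the probe means stayed between 3.23 and 3.75. The low end, at 0.10 ± 0.17, was level with the median probe.

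The other extreme was a low end far below the median. On chromosome 2 from 30061072 to 30062542 the low end was at -2.41 ± 0.32 and the high end at only 0.71 ± 0.17, with 10 of 15 low-end bound measurements above background. On chromosome 4 from 40992344 to 40993693 both ends were above the level of the median probe, at 0.74 ± 0.35 and 3.72 ± 0.24. Over the 20 regions the low end was above 0 in 3.

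Steps of like size differed in which channel carried them. On chromosome 9 from 18277796 to 18278860 the step was 3.11 ± 0.51, but bound signal differed by only 0.32 and input by -2.79, with all 15 low-end bound measurements above background. On chromosome 2 from 165724319 to 165725683 bound signal differed by 5.21 and input by 1.72, so the input change reduced the ratio. Input was brighter at the low end by over 1 in 3 of the 20 regions, those on chromosomes 9 (start 18277796), 15 (start 54944840) and 1 (start 74437126).

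The position of each step was taken as the change point of a single-step fit to the probe means over arrays, with at least 2 probes on each side. In 5977 members the fitted level rose towards the high end. The change point lay a median of 86 bp from the region midpoint towards the high end (84, 72 and 76 bp on the arrays taken singly, SD 6.3 bp). It was on the high side of the midpoint in 3635 members (60.8%). The middle of the region held it in 3213 (53.8%), the high outer part in 1801 (30.1%) and the low outer part in 963 (16.1%). Regions without a step had a low centre too: their middle minus the mean of both ends was -0.20 ± 0.06, against -0.25 ± 0.06 in members. No change point of those regions is given here, so the shift is not shown to be particular to members. Members high on the left and on the right gave median positions of 87 and 85 bp, and fully measured ones 72 bp.

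Agreement between the arrays on the change point was partial. The 3 single-array positions lay within 200 bp of each other in 3348 members (56.0%), with a median range of 168 bp. The median distance between neighbouring probes was 84 bp. The share within 200 bp was 51.2% for steps of 1 to 1.5 and 66.3% for steps of at least 2.5. Among the 20 largest fully measured steps it was 16, and in 6 of these all arrays gave the same probe gap.

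The width of a step was the distance over which a monotone fit rose from 25% to 75% of its range. Its median was 319 bp (305, 343 and 349 bp by array, SD 23.8), and 80% of members lay between 78 and 793 bp. It was at most 100 bp, about 1 probe gap, in 853 members (14.3%) and over 400 bp in 2424 (40.6%). Fully measured members had a median of 304 bp. A single step took a median of 62.9% of the variance between probes and a straight line 43.3%, and the step left the smaller residual in 5195 members (86.9%). The step fit has 1 more free parameter than the line, so this count is a description. The sources used here give no fragment length for the sonicated DNA, so the limit of resolution is unknown.

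**Figure D5:**
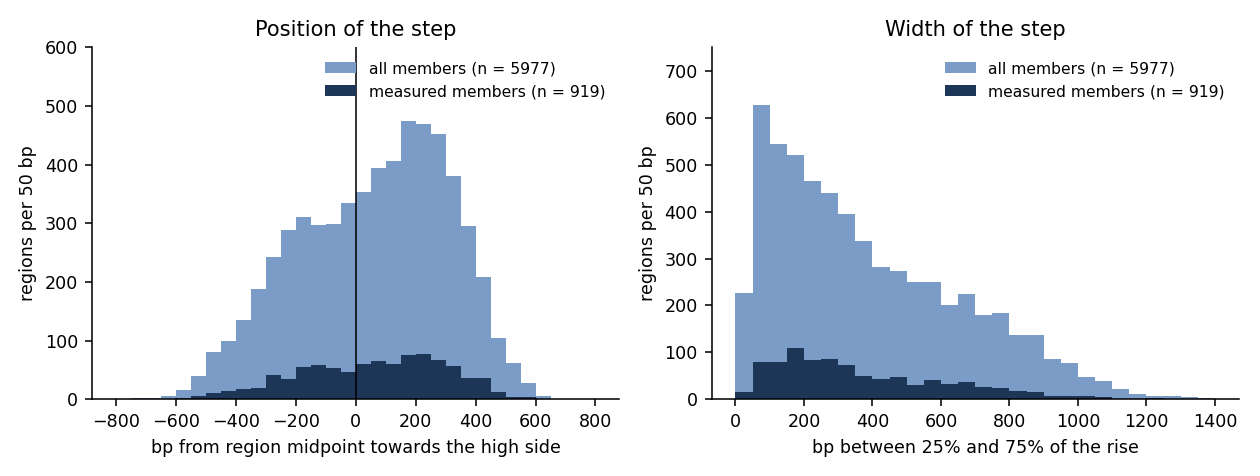
Histograms, in bins of 50 bp, of the change point (bp from the region midpoint towards the high end) and of the width between 25% and 75% of the rise, for 5977 members and the 919 fully measured ones among them. The fullest bins are 150 to 200 bp towards the high end for the position (475 members) and 50 to 100 bp for the width (627 members), whose tail reaches past 1000 bp.

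The narrowest fully measured steps were between 21.8 and 33.9 bp wide, less than the spacing of most probes. Such widths are interpolated between probe midpoints and are shorter than the shortest probe (45 nt), so they are not resolved by the array. The largest of these 5 lay on chromosome 8 from 36558368 to 36559496, with steps of 2.81, 2.05 and 2.20. Between the neighbouring probes starting at 36558678 and 36558738 its mean level fell from 1.51 ± 0.27 to -1.21 ± 0.21. All 3 arrays placed the change point in that gap. The middle went lower still, to -1.89 ± 0.08, and the right end was at -0.77 ± 0.42, so this region was a dip with unequal rims as well as a step. The other 4 had steps of 1.03 to 1.60 and lay on chromosomes 19 (7061898 to 7063180), 4 (135030206 to 135031580), 7 (139968414 to 139969818) and 2 (26169840 to 26171274). For the narrowest, on chromosome 19, the change point was at 145, 145 and -132.5 bp towards the high end on the 3 arrays. In the one on chromosome 4 the bound signal was lower at the high end, by -0.87, and the input by -2.47.

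The middle stood nearer the low end. In the median member it lay 34.9% of the way from the low to the high level. It was under 25% of the way in 2428 of 5845 members (41.5%), between 25% and 75% in 2264 (38.7%) and over 75% in 1153 (19.7%). In 1383 members (23.7%) the middle was even below the low end, and in 524 (9.0%) above the high end, so some members joined a step with a central dip or peak.

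Measured as the middle minus the mean of both ends, members averaged -0.31, -0.22 and -0.21 on the 3 arrays (mean -0.25 ± 0.06). The two-sided exact permutation test, which flips the signs of the 3 array values, gave p = 0.25, the smallest that 3 arrays allow. Regions without a step averaged -0.20 ± 0.06. The difference between both sets was -0.04 ± 0.005, below 0 on 3 of 3 arrays (exact sign-flip permutation p = 0.25). In limma's fit over all eligible regions with at least 2 middle probes, 45.0% were called (adjusted p under 0.05), 31.0% with a lower and 14.0% with a higher middle. Among members it was lower in 1938 (33.2%) and higher in 836 (14.3%), with a median of -0.24 against -0.20 over all regions tested. These shares are near the background, and regions without a step showed a low centre too. Leaving out replicate 2 reduced the members with a higher middle to 507.

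Of the 20 largest fully measured steps, 19 had enough middle probes for this test. The middle was higher in 6 of them and lower in 4. It was highest relative to the ends on chromosome 5 from 77640088 (limma adjusted p = 0.000334), where the step lay near the low end, and lowest on chromosome 7 from 25218228 to 25219540 (adjusted p = 8.08e-05), where the middle, at -0.81 ± 0.39 over 2 probes, was below the low end of -0.28 ± 0.68. There only 3 of 9 low-end bound measurements were above background.

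The average shape had more detail than 2 levels. Read from low to high end in 10 equal bins of the length, the mean level was -0.67 ± 0.03 in bin 1 and -0.80 ± 0.07 in bin 3. It then rose through -0.33 ± 0.05 in bin 5 and 0.30 ± 0.06 in bin 7 to 0.97 ± 0.14 in bin 9 and 0.96 ± 0.14 in bin 10. The lowest stretch was therefore not the outermost one, while the high side was flat over its last 2 bins. Bound signal was above background in 48.7% of measurements at the lowest point and in 72.2% at the high edge.

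As whole regions, members were much like the rest. The mean over all probes of a region was called higher than the array's median probe in 1882 members (31.4%) and lower in 2376 (39.7%), against 29.0% and 38.6% of all eligible regions, of which 67.6% were called in all (limma, adjusted p under 0.05). The median region mean was -0.11 in members and -0.10 over all eligible regions. By array, members exceeded regions without a step by 0.06, 0.04 and 0.04 (mean 0.05 ± 0.02, exact sign-flip permutation p = 0.25). Fully measured members were called higher more often (630 of 921, 68.4%) and lower in 115, which goes with the filter on bound signal. Centring on the mode gave 681 higher and 4351 lower members.

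DNA beyond the regions was not used by the rule. The nearest tiled region on each side lay within 20000 bp for 1033 members, a median of 7532 bp away on the high side and 7829 bp on the low side. The neighbour on the high side averaged 0.005 ± 0.03 and that on the low side -0.04 ± 0.03. The difference was 0.05 ± 0.006, above 0 on 3 of 3 arrays, with p = 0.25 by the same exact permutation test. It was small beside the steps themselves, and the high-side neighbour was the higher one in 542 of 1033 members (52.5%). Among regions without a step, oriented by their smaller difference, it was 1072 of 2129 (50.4%), with a difference of -0.0061 ± 0.0054. For the 626 members with no member as neighbour the difference was 0.09 ± 0.009. The difference was 0.09 ± 0.007 over 246 fully measured members and 0.13 ± 0.006 over 268 members with steps of 1.5 to 2. For steps of at least 2 the difference was -0.05 ± 0.02 over 227 members, and with neighbours up to 100000 bp away it was -0.0068 ± 0.0047 over 3947. With neighbours up to 5000 bp away it was 0.02 ± 0.04 over 121 (exact permutation p = 0.75).

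Where adjacent tiled regions were both members and lay within 20000 bp of each other, 263 of 476 pairs (55.3%) stepped in the same direction. In 125 pairs (26.3%) the high ends pointed away from each other, and in 88 (18.5%) they faced each other. Among 1870 adjacent pairs of regions without a step, oriented by the sign of their smaller difference, the shares were 50.2%, 24.4% and 25.5%. The difference between these shares was not tested.

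Members were found on every autosome. The share of eligible regions with a step ranged from 30.9% on chromosome 2 (498 of 1611) to 40.9% on chromosome 15 (293 of 717). Chromosome 14 was next lowest at 32.4% and chromosome 8 next highest at 38.2%, and the other 15 lay between 33.0% and 37.3%. The arrays were also taken singly, by the share of eligible regions whose outer parts differed by at least 1 on that array alone. This is a different measure from the share of members. By it arrays 1 and 2 had the same extremes, with chromosome 15 highest and chromosome 2 lowest, but array 3 did not. On array 3 chromosome 15 (34.2%) was below chromosomes 12 (35.3%) and 8 (35.1%), and chromosome 3 (29.3%) was below chromosome 2 (29.5%). The high end was on the left in 44.9% of members on chromosome 10 and in 55.0% on chromosome 12, the extremes. Chromosome 12 also had the largest median step, 1.69 over 200 members, against 1.42 on chromosome 6. The lowest median high end was on chromosome 19 (0.62) and the lowest median low end on chromosome 13 (-0.93). Differences between chromosomes were not tested.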

How the data were processed

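DNA methylation was profiled on 3 arrays of 420288 spots. Per the file headers, the intensity values come from Agilent Feature Extraction 10.7.3.1, with background subtracted, spatial trends removed and dyes normalised, and probes were placed on mm9. The log2 ratios of the deposited series matrix had medians of -0.97 on each array and followed bound over input spot medians (r of 0.999 or more over spots). No source used here gives their normalisation.

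Outlier spots were left out, log2 of bound over input processed signal was centred on each array's median, and repeat spots were averaged to 409597 placed probes. Neither loess nor quantile normalisation was applied. Probes were placed by midpoint. Differences across all eligible regions were tested with limma 3.58.1 (R 4.3.3) against 0 with Benjamini-Hochberg adjustment at 0.05, and means per array with exact two-sided sign-flip permutation tests. On simulated data for the left-minus-right fit over 17218 regions, few of them shifted, 58% of shifts of 1 and 98% of shifts of 1.5 were recovered. There were 7 false calls. The fit to the data called 55.1% of regions, so the simulated shares do not give its power. The number of arrays limits the precision. Members and lists were chosen with earlier results of these data known. Named regions are, outside chromosome 18, the 10 largest fully measured steps of each direction, the 5 narrowest, and 2 regions on each side of the limit. Strand could not be used, for lack of an mm9 annotation here.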

Additional observations from a re-analysis of the deposited data

How the results depend on the processing

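Alternatives changed one choice at a time, except that normexp also took spot medians and an offset, and the series matrix its own normalisation. The count of 5985 members became 1363 with normexp and 3529 with probes above background in both channels, and 2896 with a limit of 1.5. It stayed within 1.5 times under loess, the series matrix, removal of probes dim in both channels, the other ways of forming regions and their outer parts, and a limit of 0.75. Membership moved more than the count: loess kept 4189 of the 5985 members (70.0%) and the series matrix 4349 (72.7%). Normexp reduced the median step from 1.48 to 0.69, and loess to 1.27. The median high end was 0.34 with normexp and 0.13 with mode centring. The median low end was -0.27 under normexp, -0.53 under loess, -0.61 from the series matrix, -0.91 once probes dim in both channels were removed and -1.46 with mode centring. The median position stayed on the high side: 116 bp (normexp), 75 bp (loess), 137 bp (series matrix) and 72 bp (fully measured members), against 86 bp; these were chosen after seeing the data. The width from 10% to 90% was 617 bp. With probes above background in both channels, left minus right was called higher in 2912 and lower in 2999 regions, and among members a lower middle in 1134 and a lower region mean in 850. Mode centring gave 681 higher and 4351 lower region means. The neighbour difference reversed to -0.0068 within 100000 bp. With 1 replicate left out, members numbered 5715 to 6591, members with a higher middle 507 to 795, the median position was 78 to 89 bp, and the step on the array left out was 1.24 to 1.62. The 20 largest fully measured steps outside chromosome 18 kept their direction and a size of at least 1 under normexp, loess, the series matrix and with 1 replicate left out, from 1.44 with normexp to 4.27 without replicate 3. The filters on background could not change them. The causes of these changes were not tested. No paired analysis was possible because there was 1 group. Over all members, bound signals near background limit the low end most. In the 2050 members where a dimmer input made up most of the step, the high end had the lower share above background in both channels.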
